A study of Homo sapiens with 28 samples.

Results

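The 10 genes described here are the arginine methyltransferases PRMT1, PRMT2, PRMT3, CARM1, PRMT5, PRMT6, PRMT7 and PRMT9 and the PRMT5 cofactors WDR77 and CLNS1A. They were chosen by gene symbol, as 10 of the 58278 rows of the deposited count table, and all 10 had enough counts to be tested in tumors and in cultures. The samples were HCT116 human colorectal carcinoma cells that carried a luciferase and GFP reporter, grown under the skin of male NOD SCID mice that were 5 weeks old at implantation. These mice lack mature lymphocytes and keep other host cells, and the xenografts all came from 1 cell line. Mice received daily oral vehicle (Control, 3 tumors), 100 mg/kg/day of the CDK4 and CDK6 inhibitor Palbociclib (5 tumors), 150 mg/kg/day of the glutaminase inhibitor Telaglenastat (4 tumors) or both drugs at these doses (combination, 4 tumors) for 23 days, and residual tumors were sequenced. The sample labels spell the second drug Telaglenestat. A further 12 libraries came from 2D cultures started from residual tumors, 3 for each treatment, which were grown without drug and carry no record of the tumor they came from. Each library is called by its treatment and replicate number. The labels do not say that the libraries of a group came from separate mice, so p-values measure only the spread between these libraries, which may be technical.

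Protein arginine methyltransferases transfer methyl groups from S-adenosylmethionine to arginine side chains of histones, RNA-binding proteins and signaling proteins. Type I enzymes (PRMT1, PRMT2, PRMT3, CARM1, PRMT6) make asymmetric dimethylarginine, type II enzymes (PRMT5, PRMT9) make symmetric dimethylarginine, and PRMT7 makes only monomethylarginine. PRMT5 works in a complex with WDR77, and CLNS1A (pICln) brings Sm proteins of the spliceosome to it. In colorectal and other carcinomas PRMT1, CARM1 and PRMT5 are known mainly as transcription and splicing regulators, and loss of the methylthioadenosine enzyme MTAP is known to sensitize cells to PRMT5 inhibition.

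All 10 genes had a promoter in the RefSeq table for GRCh38.p14 (12 start sites, since CARM1 and PRMT7 had 2 each). The sequences below are those of PRMT1 and CARM1, which fell together in tumors, and of CLNS1A, which went the other way. They are written on the strand of the gene, from 250 bases before the RefSeq start up to the base before the next GENCODE 29 exon of the same gene. The GENCODE 29 gene PRMT1 starts at 49675786, so that its stretch lies inside the annotated gene and not before all its transcripts. Capitals mark the GC box GGGCGG, the CCAAT box or the E-box CACGTG on either strand, of which no matches overlapped.
PRMT1, chr19:49677021-49677072, plus strand: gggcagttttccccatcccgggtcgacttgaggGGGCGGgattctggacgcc
CARM1, chr19:10871303-10871512, plus strand: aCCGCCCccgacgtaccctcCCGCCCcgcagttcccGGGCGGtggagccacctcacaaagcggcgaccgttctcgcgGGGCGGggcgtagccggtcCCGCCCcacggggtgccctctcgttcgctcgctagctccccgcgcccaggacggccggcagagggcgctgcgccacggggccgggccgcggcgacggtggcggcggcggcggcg
CLNS1A, chr11:77637806-77638044, minus strand: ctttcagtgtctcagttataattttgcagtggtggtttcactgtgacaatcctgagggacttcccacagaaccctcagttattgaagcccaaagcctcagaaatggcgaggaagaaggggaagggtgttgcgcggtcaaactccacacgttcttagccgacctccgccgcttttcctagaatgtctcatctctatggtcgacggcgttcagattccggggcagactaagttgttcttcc
Over the whole 250 bases, CARM1 held 5 GC boxes and no CCAAT box, PRMT1 held 1 GC box and 2 CCAAT boxes, and CLNS1A held none of the motifs. A GC box was in 42.6% of the 35116 promoter windows of this length in the table, a CCAAT box in 32% and an E-box in 6.34%. PRMT5 held 3 CCAAT boxes and PRMT3 was the only member with an E-box (1 match). GC content of the window was 81.6% for CARM1, 61.2% for PRMT1 and 51.6% for CLNS1A, against a median of 58% over all windows.

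Reads counted on genes ranged from 6273834 to 10617936 per tumor library and from 7198540 to 13815675 per culture library. Values are CPM, the counts scaled to a library total of 1000000 with TMM-adjusted library sizes, separately for tumors and cultures. Changes are log2 fold changes with an SE. This SE was the absolute log2 fold change divided by the square root of the F statistic of edgeR's quasi-likelihood test. A gene was called where its p from that test, adjusted by Benjamini-Hochberg over all genes tested, was under 0.05. Counts depended on GC content differently in tumor libraries of different treatments. The slope of log2 CPM per SD of GC content (8.08 percentage points) was 0.257 ± 0.00666 (SD, n = 3) in Control, 0.288 ± 0.109 (SD, n = 5) in Palbociclib, -0.342 ± 0.0357 (SD, n = 4) in Telaglenastat and -0.21 ± 0.0573 (SD, n = 4) in combination tumors. Changes called in tumors are therefore also given with the smooth dependence of counts on GC content and exon length taken out of every library, and such values are called corrected. Palbociclib tumor 2 had a slope of 0.0959, against 0.318 to 0.366 in the other 4 Palbociclib tumors, and culture 2 of the Telaglenastat group had 0.426, against -0.0328 and -0.0181 in the other 2. The summed level of 6 epithelial markers (EPCAM, KRT8, KRT18, KRT19, CDH1, VIL1) was 2620 to 3160 CPM in Control, 2880 to 3990 in Palbociclib, 1550 to 1710 in Telaglenastat and 2260 to 2550 in combination tumors, with VIL1 at 0 in all Telaglenastat tumors. These markers did not move together. Means in Control and Telaglenastat tumors were 1130 and 473 CPM for KRT8, 782 and 363 for KRT18 and 453 and 114 for KRT19. EPCAM was higher in Telaglenastat tumors (395 and 487 CPM), and so was CDH1 (158 and 170 CPM). The summed level of 7 fibroblast markers was 155 to 193 CPM in Control, 110 to 189 in Palbociclib, 49.3 to 63.9 in Telaglenastat and 97.1 to 149 in combination tumors, with LUM at 0 in every tumor and DCN at 0 outside the Palbociclib group. Between Control and combination tumors these markers also moved apart. Means were 112 and 62.2 CPM for COL1A1, 0.474 and 0.304 for PDGFRB and 19.2 and 18.8 for COL1A2. COL3A1 (34 and 39.6 CPM) and POSTN (2.18 and 4.08 CPM) were higher in combination tumors. The 3 endothelial markers summed to at most 1.47 CPM and the 6 leukocyte markers to at most 30.8 CPM in any tumor, with CDH5 and TYROBP at 0 in all libraries. The part of these differences in the changes of the 10 genes was not tested, other than through the corrected values. Xenografts also hold mouse cells, whose reads may have been counted on human genes, the fibroblast markers and the 10 genes among them. How far this happened was not tested.

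**Figure D1:**
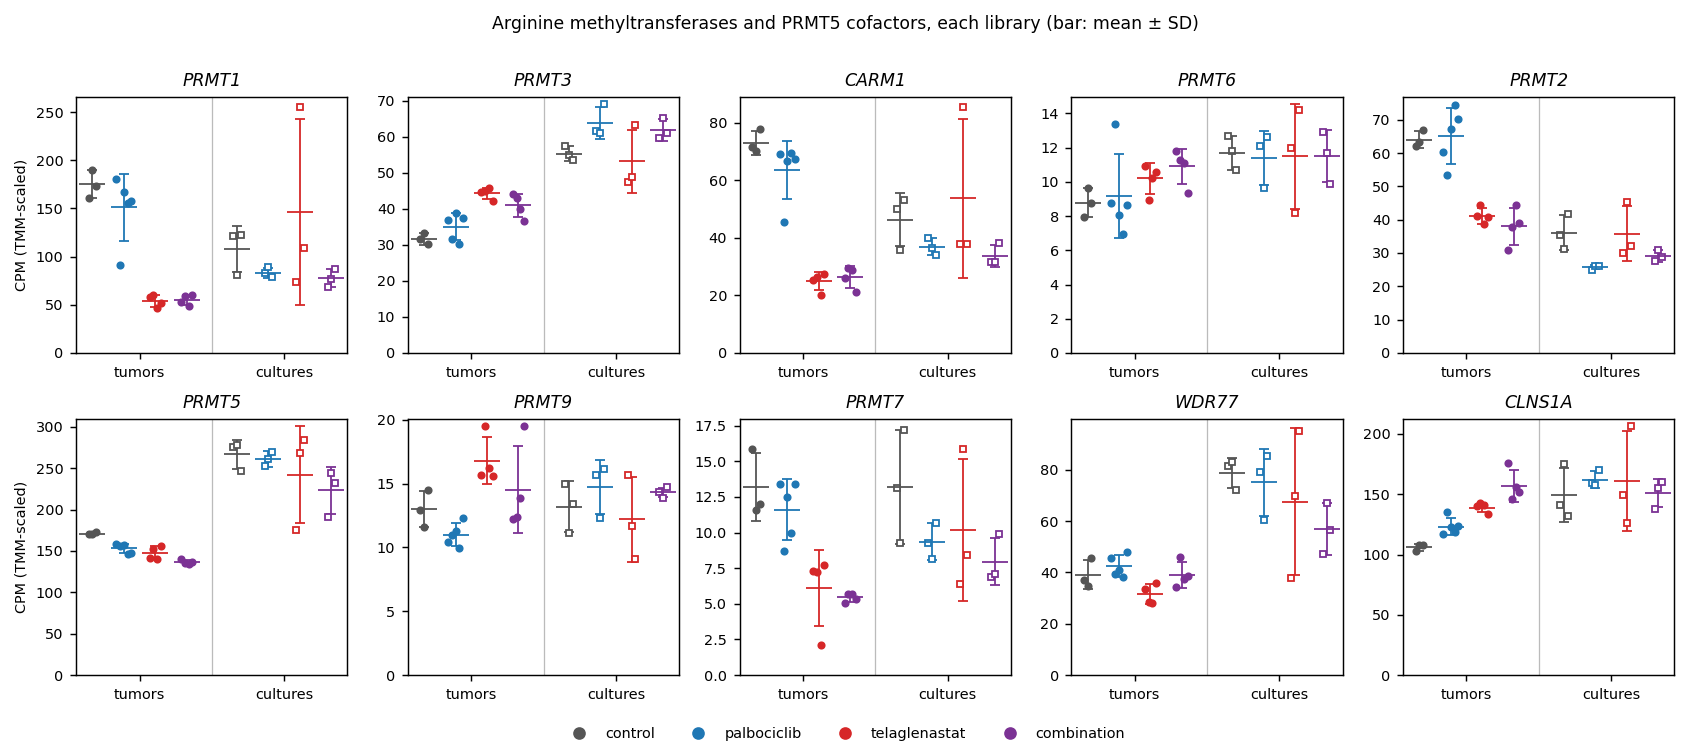
CPM of each of the 10 genes (vertical axes from 0, TMM-scaled, separate scale for tumors and cultures) in every tumor library (filled circles) and culture library (open squares), by treatment, with bars for the mean ± SD. PRMT1 lies between 46.2 and 60.5 CPM in all 8 tumors that received Telaglenastat and between 91.5 and 190 CPM in the other 8.

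Per kilobase of exon and on 1 scale for all 28 libraries, PRMT5 had the highest level of the 10 genes in Control tumors, at 46.1 ± 0.458 CPM per kb (SD, n = 3). PRMT1 followed at 34.2 ± 3.03 and CLNS1A at 21.6 ± 0.662. CARM1 was at 15.4 ± 0.814 and WDR77 at 13 ± 1.86, and the libraries of these neighbors overlapped. Lower in the order, without overlap between neighbors, were PRMT2 at 7.46, PRMT3 at 5.42, PRMT9 at 3.02, PRMT6 at 1.9 and PRMT7 at 1.3 CPM per kb. In Control cultures PRMT5 was again highest, at 79.8 ± 5.06 CPM per kb (SD, n = 3), followed by CLNS1A at 33.7 and WDR77 at 29.1, which overlapped, and by PRMT1 at 23.4. CARM1 at 10.8 overlapped PRMT3 at 10.5, PRMT2 was at 4.67, PRMT9 at 3.4 overlapped PRMT6 at 2.81, and PRMT7 was at 1.45 CPM per kb. PRMT8, the brain-enriched member of the family, had no count in any library.

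Control tumors had less PRMT5, WDR77 and CLNS1A, the 3 members of the PRMT5 complex, less PRMT3 and PRMT6, and more PRMT2 than Control cultures. In this comparison 45.9% of all tested genes were called (edgeR, one fit of 28 libraries). WDR77 was lower by a log2 fold change of -1.16 (SE 0.21, adjusted p = 4.44e-05, corrected -1.16). PRMT5 was lower by -0.79 (SE 0.12, adjusted p = 3.47e-06, corrected -0.84) and CLNS1A by -0.64 (SE 0.13, adjusted p = 0.00015, corrected -0.36). PRMT3 differed by -0.95 (SE 0.12, adjusted p = 2.27e-07, corrected -0.63). The change of PRMT6 was -0.56 (SE 0.21, adjusted p = 0.0323, corrected -0.5), a call that was lost without Control tumor 1 or 3 or Control culture 1 or 2 (-0.5 to -0.56, adjusted p = 0.0718 to 0.109). Among these fits CARM1 passed in the one without Control culture 3 (0.62, adjusted p = 0.0454). PRMT2 was higher by 0.68 (SE 0.14, adjusted p = 0.000242, corrected 0.39). PRMT1 (0.55) and CARM1 (0.51) were above the cultures in every Control tumor without passing the test (adjusted p = 0.0972 and 0.0574), and their corrected values were 0.01 and -0.2. PRMT7 changed call with the correction, from -0.15 (adjusted p = 0.734) to -0.65 (adjusted p = 0.0428, with 40.5% of all genes called after correction), and PRMT9 was not called (-0.17, adjusted p = 0.484). The fibroblast markers summed to 155 to 193 CPM in Control tumors and to 4.22 to 5.34 CPM in Control cultures (2.42 to 8.05 CPM over the cultures of all treatments). Their part in these differences was not tested.

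**Figure D2:**
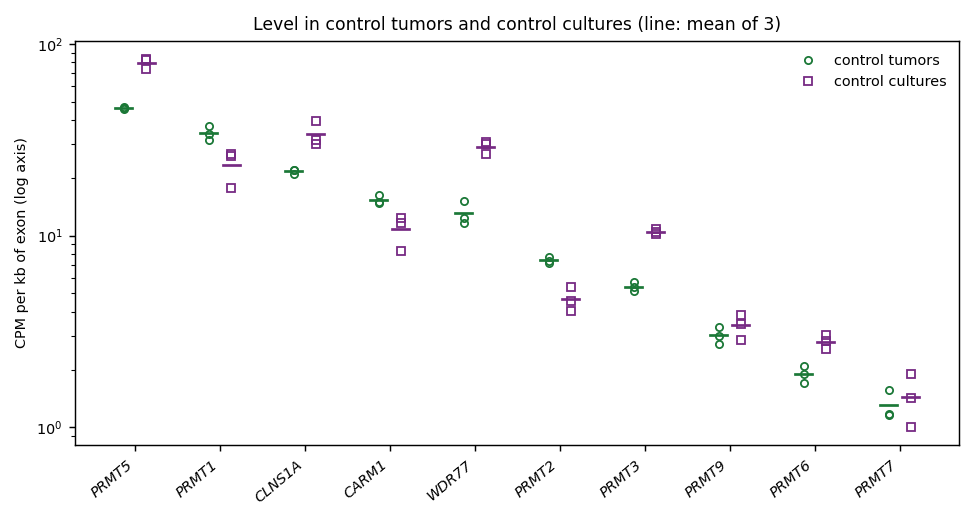
Level of each gene in CPM per kb of exon (log axis) in 3 Control tumors (circles) and 3 Control cultures (squares), with a line at each mean, ordered by the mean in Control tumors. PRMT5 is highest in both, and WDR77 stands at 13 CPM per kb in tumors and 29.1 in cultures.

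Of the type I enzymes, PRMT1 and CARM1 were lower in every tumor that received Telaglenastat, alone or with Palbociclib, PRMT2 was lower to a smaller degree, PRMT3 was higher, and PRMT6 was not called. In bulk tumors, fewer cells that express a gene and less RNA per cell cannot be told apart. PRMT1 (ENSG00000126457.21, GRCh38 chromosome 19 from 49675786 to 49689029, plus strand) makes most of the asymmetric dimethylarginine in mammalian cells. Its level was 161, 190 and 173 CPM in Control tumors and 181, 91.5, 167, 156 and 158 CPM in Palbociclib tumors. Telaglenastat tumors had 57.8, 60.5, 46.2 and 52.2 CPM and combination tumors 53.2, 58.8, 48.9 and 59.8 CPM. The groups with and without Telaglenastat did not overlap, and Palbociclib tumor 2 was the lowest of the others. Against Control, PRMT1 fell by 1.69 on the log2 scale with Telaglenastat (0.31 of the Control level, SE 0.16, adjusted p = 5.48e-08, edgeR) and by 1.67 with the combination (0.315 of the Control level, SE 0.16, adjusted p = 1.2e-07). The corrected values were -0.83 (adjusted p = 5.85e-05) and -0.94 (adjusted p = 7e-06). With Palbociclib alone the value was -0.21 (SE 0.14, adjusted p = 0.492). PRMT1 shares 366 exon bases with ADM5 on the same strand, so its counts may hold some reads of that gene.

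CARM1 (ENSG00000142453.11, chromosome 19 from 10871513 to 10923070, plus strand) is a transcriptional coactivator that methylates histone H3 and splicing factors. It was at 71.5, 70.1 and 77.8 CPM in Control tumors and at 69.3, 45.7, 66.7, 69.6 and 67.3 CPM in Palbociclib tumors. Telaglenastat tumors had 25.5, 26.3, 20.3 and 27.5 CPM and combination tumors 26.2, 29.4, 28.7 and 21.1 CPM. As for PRMT1, all 8 tumors that received Telaglenastat were below the other 8, of which Palbociclib tumor 2 was the lowest. CARM1 fell by 1.55 with Telaglenastat (SE 0.14, adjusted p = 3.71e-08, edgeR) and by 1.47 with the combination (SE 0.14, adjusted p = 1.14e-07). Of these changes, -0.39 (adjusted p = 0.0178) and -0.5 (adjusted p = 0.00144) were left after correction. With Palbociclib the value was -0.2 (SE 0.12, adjusted p = 0.457), with every tumor below the Control range. An 886-base stretch of CARM1 exons overlaps YIPF2 on the opposite strand, and whether reads were counted by strand is not given in the sources used here.

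PRMT2 (ENSG00000160310.17, chromosome 21 from 46635167 to 46665124, plus strand), a weakly active enzyme and nuclear receptor coactivator, was at 62, 63.2 and 66.9 CPM in Control tumors. It ranged from 53.4 to 74.3 CPM in Palbociclib, from 38.6 to 44.3 in Telaglenastat and from 31 to 44.3 in combination tumors, so that tumors with Telaglenastat again lay below all others. PRMT2 fell by 0.64 with Telaglenastat (SE 0.11, adjusted p = 0.000114, corrected -0.3, adjusted p = 0.0394) and by 0.75 with the combination (SE 0.11, adjusted p = 2.4e-05, corrected -0.44, adjusted p = 0.00164). PRMT3 (ENSG00000185238.12, chromosome 11 from 20387530 to 20509294, plus strand), the cytosolic enzyme that methylates ribosomal protein RPS2, moved the other way. It was at 31.7, 33.2 and 30.1 CPM in Control tumors, 30.2 to 38.8 in Palbociclib tumors, 42.1 to 45.7 in Telaglenastat tumors and 36.7 to 44 in combination tumors. PRMT3 rose by 0.49 with Telaglenastat (SE 0.1, adjusted p = 0.000551) and by 0.37 with the combination (adjusted p = 0.00597), and neither change was called after correction (0.1, adjusted p = 0.594, and 0.14, adjusted p = 0.343). PRMT6 (ENSG00000198890.7, chromosome 1 from 107056679 to 107067636, plus strand), a nuclear enzyme of histone H3, held 55 to 102 counts per tumor library. It was at 7.97 to 9.63 CPM in Control and 9.37 to 11.8 CPM in combination tumors, and no comparison of it among tumors was called.

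PRMT5 and its partners changed less and in different directions: PRMT5 was slightly lower in treated tumors, CLNS1A was higher, and WDR77 stood near the Control level in combination tumors. PRMT5 (ENSG00000100462.15, chromosome 14 from 22920511 to 22929585, minus strand), the main writer of symmetric dimethylarginine, was at 170, 170 and 173 CPM in Control tumors. Palbociclib tumors had 158, 156, 157, 146 and 148 CPM, Telaglenastat tumors 142, 152, 140 and 156 CPM and combination tumors 140, 136, 134 and 137 CPM. Every treated tumor was below the Control range, and the 4 combination tumors were below all Palbociclib tumors. PRMT5 fell by 0.21 with Telaglenastat (SE 0.06, adjusted p = 0.00715) and by 0.32 with the combination (SE 0.06, adjusted p = 0.000247), and with Palbociclib it was at -0.16 (SE 0.06, adjusted p = 0.119). After correction the combination change was -0.21 (adjusted p = 0.00776), and the Telaglenastat change of -0.03 (adjusted p = 0.786) was no longer called. The antisense gene PRMT5-AS1 shares 938 exon bases with PRMT5, so without strand their reads cannot be told apart.

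CLNS1A (ENSG00000074201.8, chromosome 11 from 77514936 to 77637805, minus strand), the chaperone that holds Sm proteins for PRMT5, had the highest rise of the members in combination against Control tumors. It was at 103, 108 and 108 CPM in Control tumors, 117, 135, 123, 119 and 124 in Palbociclib tumors, 140, 143, 141 and 134 in Telaglenastat tumors and 176, 146, 156 and 152 in combination tumors. No treated tumor was within the Control range, and the combination tumors were above all others. CLNS1A rose by 0.57 with the combination (SE 0.07, adjusted p = 3.38e-06, corrected 0.36, adjusted p = 0.000248) and by 0.39 with Telaglenastat (SE 0.07, adjusted p = 0.000165, corrected 0.1, adjusted p = 0.346). With Palbociclib the value of 0.22 (SE 0.07, adjusted p = 0.0704) was not called by edgeR, whereas the corrected value of 0.26 was (adjusted p = 0.00915). WDR77 (ENSG00000116455.13, chromosome 1 from 111439890 to 111449376, minus strand), the obligate partner of PRMT5, was at 37.2, 34.6 and 45.6 CPM in Control tumors and 33.7, 28.6, 28.2 and 35.7 CPM in Telaglenastat tumors, which overlapped. WDR77 fell by 0.31 with Telaglenastat (SE 0.13, adjusted p = 0.0475, corrected -0.21, adjusted p = 0.331). This call was lost without Control tumor 1 (adjusted p = 0.0611), Control tumor 3 (0.278), Telaglenastat tumor 2 (0.118) or Telaglenastat tumor 3 (0.122). With the combination the value was 0.00 (SE 0.12, adjusted p = 0.996).

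Among the members with few counts, PRMT7 was lower in tumors that received Telaglenastat than in Control tumors, and PRMT9 was not called against Control. PRMT7 (ENSG00000132600.16, chromosome 16 from 68310974 to 68358563, plus strand), the only type III enzyme, was at 15.9, 11.6 and 12 CPM in Control tumors and 8.68 to 13.4 CPM in Palbociclib tumors. Its level was 7.3, 7.25, 2.13 and 7.74 CPM in Telaglenastat tumors, the lowest of which held 14 counts, and at 5.08 to 5.68 CPM in combination tumors. PRMT7 fell by 1.11 with Telaglenastat (SE 0.28, adjusted p = 0.00241) and by 1.27 with the combination (SE 0.28, adjusted p = 0.000977). The corrected values of -0.46 (adjusted p = 0.266) and -0.68 (adjusted p = 0.0554) were not called. PRMT9 (ENSG00000164169.12, chromosome 4 from 147637785 to 147684230, minus strand), which methylates the splicing factor SF3B2, was at 11.6 to 14.5 CPM in Control, 15.6 to 19.5 CPM in Telaglenastat and 12.2 to 19.5 CPM in combination tumors. Its values against Control were 0.37 (SE 0.17, adjusted p = 0.0684) with Telaglenastat and 0.16 (adjusted p = 0.463) with the combination.

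Counted over the 10 genes, Palbociclib tumors had no call against Control by edgeR (2 at an unadjusted p under 0.05, and 1 by DESeq2, CLNS1A), where edgeR called 6.16% of all tested genes (3.6% lower, 2.55% higher), DESeq2 7.9%, and edgeR on corrected values, which also called CLNS1A, 7.82%. At an unadjusted p under 0.05 edgeR had 2701 of all 14848 tested genes. Telaglenastat tumors had 6 members lower and 2 higher, against 51.1% of all tested genes called (28.5% lower, 22.6% higher). After correction 3 were lower (PRMT1, CARM1, PRMT2) and none higher, against 13% of all genes (7.48% and 5.53%). Combination tumors had 5 lower and 2 higher, against 44.5% of all genes called (26.9% and 17.6%), and after correction 4 lower (PRMT1, CARM1, PRMT2, PRMT5) and 1 higher (CLNS1A), against 26.1% (13.1% in each direction). Set against the GC content of the transcripts, PRMT1 (57.5% GC), CARM1 (60.4%) and PRMT7 (55.9%) had the largest falls, while PRMT3 (39.8%), PRMT9 (40.4%) and CLNS1A (43.5%) had values above 0 against Control with both Telaglenastat and the combination. PRMT6 (49.4% GC) was also above 0 (0.21 and 0.31, not called), where the medians of all tested genes with 48 to 52% GC were -0.03 and -0.02. Among all tested genes with 56 to 60% GC, the median log2 fold change was -0.93 with Telaglenastat and -0.76 with the combination, and with 60 to 64% GC it was -1.4 and -1.15. PRMT1 was further below the median of its GC class than CARM1 was. At 40 to 44% GC the medians were 0.34 and 0.23, against 0.39 and 0.57 for CLNS1A.

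**Figure D3:**
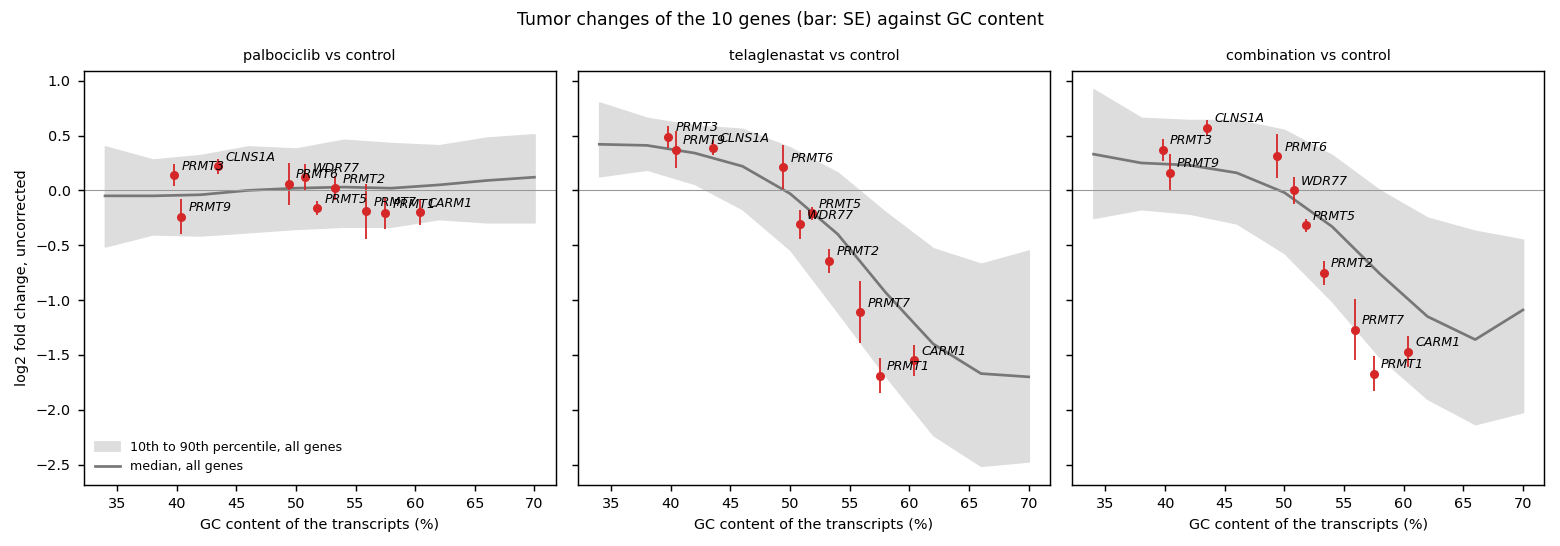
Uncorrected log2 fold change of the 10 genes (points, bars for the SE) in Palbociclib, Telaglenastat and combination tumors against Control, by the GC content of their transcripts in %, over the median (line) and the 10th to 90th percentile (band) of all tested genes in classes of 4 percentage points. The line is near 0 for Palbociclib and falls with GC content in the other 2 panels, and PRMT1 and CARM1 lie at -1.69 and -1.55 with Telaglenastat.

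Adding Telaglenastat to Palbociclib gave 5 members lower and 3 higher in combination than in Palbociclib tumors, where 47.6% of all genes were called (27.5% and 20.1%). PRMT1 was lower by a log2 fold change of -1.45 (SE 0.14, adjusted p = 1.39e-07, edgeR), CARM1 by -1.27 (SE 0.13, adjusted p = 1.39e-07), PRMT7 by -1.09 (SE 0.26, adjusted p = 0.00168) and PRMT2 by -0.77 (SE 0.1, adjusted p = 4.29e-06). PRMT5 differed by -0.16 (SE 0.05, adjusted p = 0.0189). CLNS1A was higher by 0.35 (SE 0.06, adjusted p = 0.000135). PRMT3 (0.23, adjusted p = 0.0421) and PRMT9 (0.4, adjusted p = 0.0293) were also called higher, and their libraries overlapped. PRMT3 lost its call without Palbociclib tumor 2 or 4 or without combination tumor 1, 2 or 3 (0.17 to 0.24), and PRMT9 without Palbociclib tumor 1 or 4 or combination tumor 4 (0.23 without the last). PRMT6 passed only without Palbociclib tumor 2 (0.42 in place of 0.25, adjusted p = 0.0242). After correction PRMT1 (-0.71, adjusted p = 0.000112) and PRMT2 (-0.46, adjusted p = 0.000863) were called, CARM1 was at -0.27 (adjusted p = 0.0631), PRMT3 at -0.08 with its sign turned, PRMT7 at -0.47 (adjusted p = 0.203), PRMT5 at -0.05 (0.592), CLNS1A at 0.1 (0.239) and PRMT9 at 0.09 (0.784), and 14.3% of all genes were called.

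Adding Palbociclib to Telaglenastat left no member called between combination and Telaglenastat tumors by edgeR (2 at an unadjusted p under 0.05, and 1 by DESeq2, CLNS1A), where 18.8% of all genes were called by edgeR and 20.3% by DESeq2. At an unadjusted p under 0.05 edgeR had 4590 of all 14848 tested genes. PRMT1 differed by 0.03 (SE 0.16, adjusted p = 0.936) and CARM1 by 0.08 (SE 0.14, adjusted p = 0.751). CLNS1A was at 0.17 (SE 0.07, adjusted p = 0.0734), with all 4 combination tumors above all 4 Telaglenastat tumors, and WDR77 at 0.31 (SE 0.12, adjusted p = 0.0767). Either passed without 1 library: CLNS1A without combination tumor 2 (0.22, adjusted p = 0.0373) and WDR77 without combination tumor 1 (0.38, adjusted p = 0.0411). After correction CLNS1A was higher in combination tumors by 0.26 (adjusted p = 0.00351) and PRMT5 lower by -0.18 (adjusted p = 0.0231), against 15.4% of all genes called. The combination effect was not called as different from the sum of both single-drug effects for any member, by edgeR or DESeq2. EdgeR called 0.0673% of all genes, and the share called by DESeq2 is not given. No member had an unadjusted p under 0.05 by edgeR, against 1424 of all 14848 tested genes. The combination effect minus that sum was 0.24 for PRMT1 (SE 0.21, adjusted p = 0.774) and -0.04 for CLNS1A (SE 0.1, adjusted p = 0.927).

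**Figure D4:**
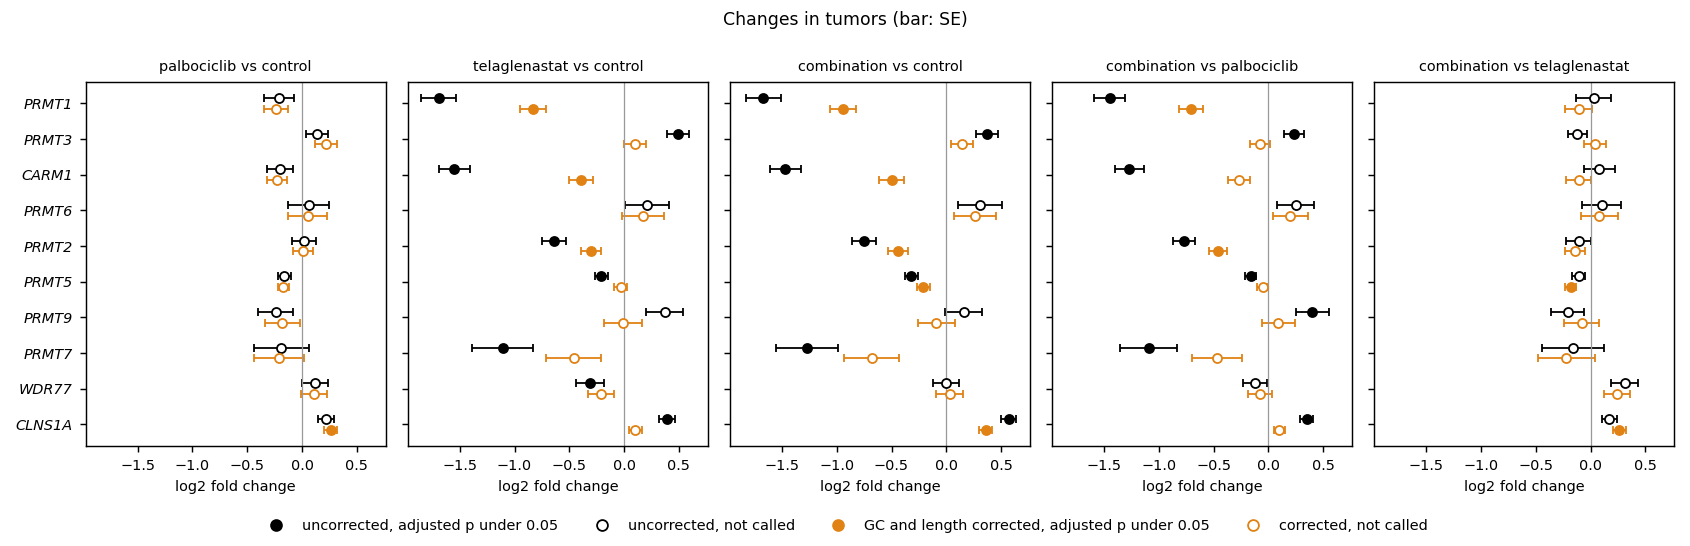
Log2 fold changes with SE bars of the 10 genes in 5 comparisons of tumor groups, without (black) and with (orange) correction for GC content and exon length, filled where the adjusted p was under 0.05. PRMT1 is filled in both colors in the 3 comparisons that differ by Telaglenastat, with the correction moving it from -1.69 to -0.83 in the panel of Telaglenastat against Control, and no black point is filled in the first and last panels.

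In cultures grown from the residual tumors, none of the 10 genes was called in any of the 5 comparisons (edgeR and DESeq2). By edgeR only 1 of 13985 tested genes was called, in combination against Control cultures (0.00715%). The share of all genes called by DESeq2 in cultures is not given. PRMT1 was at 121, 81 and 122 CPM in Control cultures, 82.5, 89.1 and 78.5 in Palbociclib cultures, 73.1, 255 and 109 in Telaglenastat cultures and 68.7, 77.2 and 87 in combination cultures. Telaglenastat culture 2 stood apart, also for CARM1 (85.7 CPM, against 38 and 37.8 in the other 2) and PRMT7 (15.9 CPM, against 6.38 and 8.43). PRMT1 was at 0.44 (SE 0.33, adjusted p = 0.845) in Telaglenastat against Control cultures, and without Telaglenastat culture 2 at -0.24. Against Telaglenastat cultures, combination cultures had PRMT1 at -0.91 (SE 0.33, adjusted p = 0.313), which passed without Telaglenastat culture 1 (-1.23, adjusted p = 0.0272). PRMT5 was at 276, 278 and 246 CPM in Control cultures and at 191, 244 and 232 CPM in combination cultures (-0.26, SE 0.16, adjusted p = 0.686). WDR77 ranged from 37.8 to 95 CPM over the Telaglenastat cultures alone. At an unadjusted p under 0.05, PRMT2 was lower in Palbociclib than in Control cultures (-0.49, adjusted p = 0.795), PRMT7 in combination than in Control cultures (-0.73, adjusted p = 0.681), and PRMT1 and CARM1 (-0.68, adjusted p = 0.323) in combination than in Telaglenastat cultures. Of all 13985 tested genes, 592, 895 and 1969 had an unadjusted p under 0.05 by edgeR in these comparisons, in this order.

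The Telaglenastat effect itself differed between tumors and cultures for 4 members (difference of effects, edgeR, one fit of 28 libraries), where 34.1% of all genes were called. The tumor effect minus the culture effect was -2.04 for PRMT1 (SE 0.37, adjusted p = 0.000308), -1.68 for CARM1 (SE 0.3, adjusted p = 0.000281), -0.54 for PRMT2 (SE 0.19, adjusted p = 0.03) and 0.64 for PRMT3 (SE 0.16, adjusted p = 0.00318). Only PRMT1 was called after correction (-1.1, adjusted p = 0.00703, against 3.81% of all genes). Without Telaglenastat culture 2 the difference was -1.35 for PRMT1 and -1.17 for CARM1, the smallest of the 13 fits that left out 1 library, and both were called in each of these. PRMT2 lost its call without Control culture 1 or 2, Telaglenastat culture 2 (-0.32), Control tumor 3 or Telaglenastat tumor 3. The combination effect differed for CLNS1A alone (0.65, SE 0.17, adjusted p = 0.0376), where 2.91% of all genes were called, and this was lost after correction (0.44, adjusted p = 0.0833, with 2.58% of all genes called). It was also lost without Control culture 2, any of the 3 combination cultures, any of the 3 Control tumors, or combination tumor 1 or 3 (0.52 to 0.67, adjusted p = 0.0505 to 0.157). For the Palbociclib effect no member was called by edgeR or DESeq2, with 1.39% of all genes called by edgeR. At an unadjusted p under 0.05 edgeR had 1 member, PRMT2, and 2159 of all 15466 tested genes. The share called by DESeq2 is not given. Differences of the members ranged from -0.42 (PRMT9) to 0.5 (PRMT2). Drug was absent from the cultures, so that tumor growth and drug exposure cannot be told apart in these differences.

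**Figure D5:**
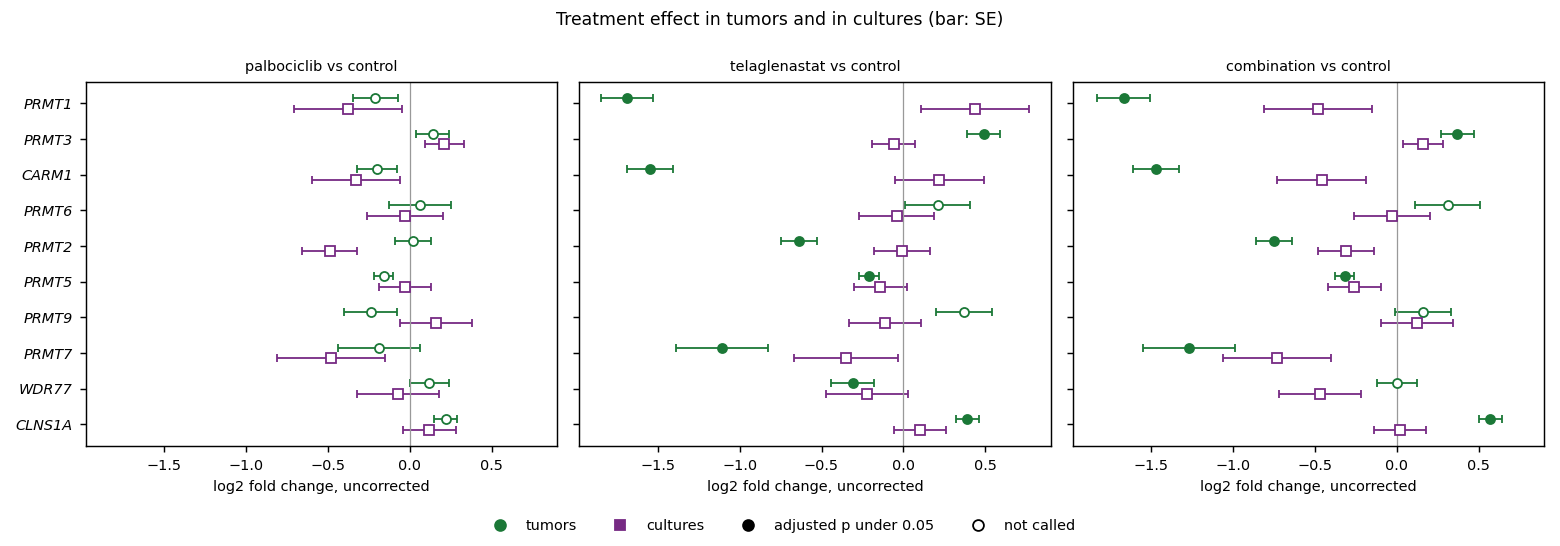
Log2 fold change with SE bars of the 10 genes against Control in tumors (circles) and in cultures (squares) for Palbociclib, Telaglenastat and the combination, filled where the adjusted p was under 0.05. No culture square is filled, and with Telaglenastat PRMT1 lies at -1.69 in tumors and 0.44 in cultures.

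Genes that feed or use the methyltransferases were described from 5 lists. The first held PRMT8, the mitochondrial enzyme NDUFAF7, METTL23 and the partners RIOK1, COPRS, BTG1 and BTG2, of which 6 of 7 were tested in tumors. Over all tested genes the median of log2 fold changes was 0.001 with Palbociclib, 0.027 with Telaglenastat and -0.036 with the combination, and that of this list was 0, 0.11 and 0.22. With Telaglenastat 2 of the 6 were higher and none lower, against 22.6% and 28.5% of all genes, NDUFAF7 by 0.65 (adjusted p = 0.00407, corrected 0.35, adjusted p = 0.218) and RIOK1, which competes with CLNS1A for PRMT5, by 0.45 (adjusted p = 0.00272, corrected 0.15). After correction 1 was lower and 1 higher, against 7.48% and 5.53% of all genes. The combination gave 2 higher and none lower, against 17.6% and 26.9% of all genes. These were NDUFAF7 (0.71, adjusted p = 0.0024, corrected 0.48, adjusted p = 0.0468) and BTG1 (0.3, adjusted p = 0.0487, corrected 0.06, adjusted p = 0.742). After correction 2 were also higher and none lower, against 13.1% of all genes in each direction.

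Of 17 tested genes of S-adenosylmethionine supply, the methionine cycle and methionine salvage, 10 were higher and 3 lower with Telaglenastat, where 51.1% of all genes were called, and after correction 1 was higher and 1 lower, where 13% were. The combination had 7 higher and 3 lower (44.5% of all genes), and after correction 4 higher and 1 lower (26.1%). The median of the list was 0.22 with Telaglenastat and 0.14 with the combination. MAT2A, the enzyme that makes S-adenosylmethionine, was at a mean of 269 CPM in Control, 386 in Telaglenastat and 427 in combination tumors. MAT2A rose by 0.52 with Telaglenastat (SE 0.12, adjusted p = 0.000878, corrected 0.29, adjusted p = 0.117) and by 0.67 with the combination (SE 0.12, adjusted p = 9.72e-05, corrected 0.49, adjusted p = 0.00489). MTRR, which reactivates methionine synthase, rose by 0.48 with the combination (adjusted p = 0.0025, corrected 0.32, adjusted p = 0.0234). The spermidine synthase SRM fell by 1.41 with Telaglenastat (adjusted p = 4.69e-07) and by 0.93 with the combination (adjusted p = 5.58e-05), whereas its corrected values were above 0 (0.07 and 0.23) and not called. AHCY, which removes the product inhibitor S-adenosylhomocysteine, was higher in combination than in Telaglenastat tumors (0.34, adjusted p = 0.00745, corrected 0.22, adjusted p = 0.0364). MTAP was at a mean of 428 CPM in Telaglenastat and 366 CPM in combination tumors (-0.23, adjusted p = 0.0222), and this difference was not called after correction (-0.03, adjusted p = 0.796).

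Of 9 tested methylarginine readers and enzymes that act on arginine or methylarginine, Telaglenastat tumors had 3 lower and 3 higher (median 0.05) and combination tumors 3 lower and 2 higher (median 0.02), against 51.1% and 44.5% of all genes called. After correction these were 1 lower and none higher, and 1 lower and 1 higher, against 13% and 26.1%. The hydroxylase JMJD6 fell by 0.7 with Telaglenastat (adjusted p = 7.31e-05, corrected -0.48, adjusted p = 0.00823) and by 0.59 with the combination (adjusted p = 0.00046, corrected -0.4, adjusted p = 0.0148). DDAH2, which clears free asymmetric dimethylarginine, fell by 1.32 and 1.31 (corrected -0.04 and -0.3, not called), and its relative DDAH1 rose by 0.56 and 0.37 (corrected 0.22 and 0.14, not called). SND1, a Tudor-domain reader of symmetric dimethylarginine, was higher with Palbociclib (0.22, adjusted p = 0.0494, corrected 0.22) and lower in combination than in Palbociclib tumors (-0.56, adjusted p = 4.8e-07, corrected -0.34, adjusted p = 0.000349).

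The targets were described as Sm proteins with their assembly factors (18 genes) and as RNA-binding proteins rich in glycine and arginine (19 genes), all tested. Of the Sm list 5 were lower and 3 higher with Telaglenastat (median log2 fold change 0.17) and 4 lower and 1 higher with the combination (median 0.08), against 51.1% and 44.5% of all genes called. After correction Telaglenastat tumors had 2 lower and 2 higher and combination tumors 3 and 3, against 13% and 26.1%. SNRPD2 fell by 0.89 with Telaglenastat (adjusted p = 3.03e-08, corrected -0.34, adjusted p = 0.00112) and SNRPB by 1.02 with the combination (adjusted p = 1.86e-07, corrected -0.24, adjusted p = 0.0216), while STRAP rose by 0.42 with the combination (adjusted p = 0.000327, corrected 0.19, adjusted p = 0.0352). Without correction SNRPD1 was the only one of the list called with Palbociclib (-0.3, adjusted p = 0.0234, corrected -0.23), against 6.16% of all genes. After correction 2 of the list were lower with Palbociclib, against 7.82% of all genes called. Of the RNA-binding substrates, 6 were lower and none higher with Palbociclib (median -0.2), against 3.6% of all genes lower and 2.55% higher. After correction 7 were lower, where 7.82% of all genes were called in either direction. HNRNPA2B1 fell by 0.42 with Palbociclib (adjusted p = 0.000923, corrected -0.37). With Telaglenastat 11 were higher and 4 lower (median 0.2), against 22.6% and 28.5% of all genes, and after correction 2 higher and 1 lower, against 5.53% and 7.48%. With the combination 6 were lower and 2 higher (median -0.13), against 26.9% and 17.6% of all genes, and after correction 9 lower and 2 higher, against 13.1% in each direction, among them FBL (-1.06, adjusted p = 6.13e-08, corrected -0.46). Combination tumors had 13 of the 19 lower and none higher than Telaglenastat tumors (12 lower after correction), with 9.89% of all genes called lower and 6.99% after correction, and the largest fall was that of HNRNPA2B1 (-0.45, adjusted p = 0.000201, corrected -0.28).

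The genes most like PRMT1 over the 8 groups, by the mean absolute difference of log2 group means centred on their mean, were ANAPC11 (0.0529), EEF1D (0.0561) and RP11-343C2.11 (0.0566), out of 11425 genes compared. USP5 (0.0402), RP11-343C2.11 (0.0497) and INTS11 (0.0531) were nearest to CARM1. The GC content of these genes was between 55.4% and 62.7%. PRMT5 was nearest to the chaperone genes STIP1 (0.0497), CCT7 (0.0557) and FKBP4 (0.0565), with GC contents between 51.1% and 52.7%.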

How the data were processed

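RNA was measured in 28 libraries, 16 residual tumors and 12 cultures. The authors prepared stranded poly(A) libraries, used CASAVA 1.8 and aligned single-end reads with STAR to hg38, and the deposited values are their whole-number counts per gene, without normalization. The annotation release, and whether counting used strand, are not given in the sources used here. Row IDs were matched to GENCODE 29 (57940 of 58278, 55109 with the same version), which gave positions, exon lengths and GC content. Tumors (14848 genes after filterByExpr with a minimum count of 10) and cultures (13985) were fitted separately as 4 group means, and all 28 libraries together (15466 genes) for differences between tumors and cultures, with edgeR 4.0.16 in R 4.3.3 (TMM, glmQLFit, glmQLFTest, limma 3.58.1). The study itself used DESeq2. The correction removed from each library a robust natural-spline trend (5 degrees of freedom, MASS 7.3.60.0.1) on GC content and log2 exon length. Scripts were checked on simulated counts. Alternatives were DESeq2 1.42.0, its size factors, other filters, other fits, a replicate block and leaving out each library.

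The 10 genes and the 5 gene lists were chosen with earlier results of these data known. All 10 members are named, and of each list up to 2 rises and 2 falls per comparison with the largest called change and a mean of at least 1 log2 CPM, of which the text gives a part. Some genes of the lists are counted but not reported here by name. The 3 genes of nearest pattern were taken for PRMT1, CARM1 and PRMT5. No pair of libraries of a group had counts that agreed within sampling noise (chi-square per degree of freedom 4.02 or more, where about 1 is expected). The sources used here name no batch, and none was modeled. The authors froze the sequenced tumors in liquid nitrogen or isopentane, and which libraries had which is not stated. The part of this in the results was not tested.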

Additional observations from a re-analysis of the deposited data

Results flagged for a closer look

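In 30 sets of 1 gene in 1 tumor group of 4 or 5 libraries, the highest and lowest value were compared with the rest of the set by Dixon's ratio at its 95% critical value, which chance passes in about 1 of 20 sets. Of these values 5 stood apart. Palbociclib tumor 2 gave 3 of them: PRMT1 at 91.5 CPM (156 to 181 CPM in the other 4), CARM1 at 45.7 CPM (66.7 to 69.6 CPM) and PRMT6 at 13.4 CPM (6.95 to 8.78 CPM). This library also had the lowest GC slope of its group, 0.0959 against 0.318 to 0.366, and the part of that slope in the 3 values was not tested. PRMT9 was at 19.5 CPM in Telaglenastat tumor 2, with 15.6 to 16.2 CPM in the other 3. PRMT7 was at 2.13 CPM in Telaglenastat tumor 3 (14 counts), with 7.25 to 7.74 CPM in the other 3.

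Treatment effects against Control differed between tumors and cultures for 5 results by the test of the difference itself (edgeR's quasi-likelihood test on 28 libraries, Benjamini-Hochberg adjustment). For Telaglenastat the tumor effect minus the culture effect was -2.04 for PRMT1, -1.68 for CARM1, -0.54 for PRMT2 and 0.64 for PRMT3, and for the combination it was 0.65 for CLNS1A. Corrected for GC content and exon length, these were -1.1, -0.43, -0.31, 0.15 and 0.44, of which the first was called. Of all tested genes, 34.1% were called for the Telaglenastat difference (3.81% after correction) and 2.91% for the combination difference (2.58% after correction).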

How the results depend on the processing

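The alternatives were DESeq2, the size factors of DESeq2 in edgeR, no filter on low counts, a minimum of 10 counts in every library, one fit of all 28 libraries, fits of the compared groups alone, a replicate block, the GC and length correction, the block with the correction, and leaving out 1 library at a time. Of the recomputed log2 fold changes of named genes in fits on all libraries, 1066 kept their direction and call, 87 lost a call, 18 gained one and 42 turned sign, of which 6 had been called. Without 1 library, 873 kept both, 51 lost a call, 4 gained one and 45 turned sign, none of them called before. PRMT6 held 55 to 102 counts per tumor library and PRMT7 as few as 14, so that small changes of these genes may not be detectable at this depth. The cause of the changes below was not tested.

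The number of members called by edgeR moved as follows. For Palbociclib against Control tumors it went from 0 to 1 with DESeq2, its size factors, the minimum of 10 counts, the correction, and the block with the correction. For Telaglenastat against Control tumors it went from 8 to 3 with the correction and to 2 with the block added. Combination against Palbociclib tumors had 8, and 5 without a filter, 2 with the correction and 2 with the block and the correction. Combination against Telaglenastat tumors had 0, and 1 with DESeq2 or its size factors, 2 with the minimum of 10 counts, 2 with the correction, 2 with the block and the correction, and 0 to 1 without 1 library. In cultures, combination against Telaglenastat had 0, and 2 without a filter and 0 to 1 without 1 library. The difference of Telaglenastat effects between tumors and cultures had 4, and 1 with the correction, with or without the block. That of the combination effects had 1, and 3 with DESeq2, 2 without a filter, 4 in the groups compared alone, 0 with the size factors, the block, the correction or both, and 0 to 1 without 1 library. The other counts of members stayed within 1.5 times. Shares of all genes called are given above for edgeR, for the correction and, in part, for DESeq2. For the other settings no share is given, so their counts cannot be compared with all genes.

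Replicate numbers are shared between groups, but they did not pair the libraries. Deviations from the group mean correlated between libraries of the same number at -0.13 to 0.09 in tumors (21 pairs, none above 0.1) and at -0.42 to 0.14 in cultures (18 pairs, 3 above 0.1). With the block, 7 members were called for Telaglenastat against Control tumors, 7 for the combination and 8 for combination against Palbociclib tumors. The share of all genes called with the block is not given, so these counts cannot be compared with all genes. WDR77 lost its call with Telaglenastat (-0.31, adjusted p = 0.0736, edgeR), as did the difference of combination effects of CLNS1A, and SND1 and SNRPD1 with Palbociclib. PRMT2 in Palbociclib tumors turned to -0.04 and WDR77 in combination tumors was at 0.00.

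With the correction, and then with the block and the correction, the following log2 fold changes given in the text turned sign in tumors. Called before, SRM was at 0.07 and 0.08 with Telaglenastat and at 0.23 and 0.24 with the combination, and PRMT3 at -0.08 and -0.04 in combination against Palbociclib tumors. Not called before, PRMT9 was at -0.01 and -0.05 with Telaglenastat and at -0.09 and -0.15 with the combination. In combination against Telaglenastat tumors, PRMT1 was at -0.11 and -0.11, CARM1 at -0.11 and -0.12 and PRMT3 at 0.04 and 0.04. PRMT2 with Palbociclib was at -0.03 with both. In cultures, CARM1 was at 0.1 and 0.1 and PRMT5 at 0.02 and 0.01 with Palbociclib, PRMT2 at 0.01 and 0.01 with Telaglenastat, and CLNS1A at -0.07 and -0.08 with the combination. PRMT9 was at 0 in combination against Control cultures with the correction and against Palbociclib cultures with both.

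Among the other settings, WDR77 in combination tumors was at -0.02 with the minimum of 10 counts. PRMT2 in Telaglenastat cultures was at 0.01 with DESeq2, its size factors, the minimum of 10 counts and one fit, and at 0.02 without a filter. PRMT6 in combination cultures was at 0 against Palbociclib (DESeq2, size factors, no filter) and against Telaglenastat (size factors, no filter, one fit), and at -0.01 against the latter with the minimum of 10 counts.

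Without 1 library at a time, log2 fold changes of members between treatments that lay on both sides of 0 within tumors or within cultures, none of them called before, had these ranges. In combination against Control tumors they were PRMT9 -0.01 to 0.24 and WDR77 -0.09 to 0.12. In combination against Telaglenastat tumors they were CARM1 -0.01 to 0.18 and PRMT1 -0.04 to 0.09. In Palbociclib against Control tumors they were PRMT2 -0.03 to 0.09 and PRMT6 -0.11 to 0.14. In combination against Control cultures they were CLNS1A -0.06 to 0.15 and PRMT6 -0.12 to 0.07. In combination against Palbociclib cultures they were PRMT3 -0.09 to 0.02, PRMT6 -0.1 to 0.1 and PRMT9 -0.16 to 0.03. In combination against Telaglenastat cultures they were CLNS1A -0.24 to 0.13, PRMT5 -0.31 to 0.01, PRMT6 -0.19 to 0.19, PRMT7 -0.62 to 0.1 and WDR77 -0.53 to 0.08. In Palbociclib against Control cultures they were PRMT6 -0.11 to 0.07 and WDR77 -0.17 to 0.06. In Telaglenastat against Control cultures they were CARM1 -0.28 to 0.42, CLNS1A -0.12 to 0.26, PRMT1 -0.24 to 0.76, PRMT2 -0.21 to 0.11, PRMT3 -0.2 to 0.01, PRMT5 -0.27 to 0.05, PRMT6 -0.22 to 0.17, PRMT9 -0.34 to 0.06 and WDR77 -0.55 to 0.06. PRMT7 in Control tumors against Control cultures was at -0.35 to 0.1. In the differences of effects between tumors and cultures, not called, the ranges were -0.17 to 0.15 for PRMT5 and -0.28 to 0.33 for WDR77 with Telaglenastat, -0.09 to 0.17 for PRMT6 and -0.04 to 0.16 for CLNS1A with Palbociclib, and -0.06 to 0.11 for PRMT5 and -0.03 to 0.25 for PRMT9 with the combination.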
